A study of Mus musculus with 27 samples.

Results

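The platelet-derived growth factor (PDGF) family comprises the ligand genes Pdgfa, Pdgfb, Pdgfc and Pdgfd and the receptor genes Pdgfra and Pdgfrb. These 6 genes, of 18193 with a probe set annotated to that gene symbol alone, were chosen by name, with earlier results of these data known. They had 14 of the 45101 probe sets, and for each the brightest probe set, by its mean over the 27 arrays, was taken. All 6 passed the filter on dim genes, a log2 intensity of at least 5 on at least 3 arrays, which left 15711 genes tested. Values are log2 of the deposited intensity, and each difference is a log2 difference.

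Total RNA of KUSA4b10 cells, a mouse line of marrow stromal cells, was hybridised to 27 Affymetrix arrays, 3 in each of 9 groups. Cells received PTH(1-34), an N-terminal fragment of parathyroid hormone, at 10 nM, or PTHrP(1-141), a long form of parathyroid hormone-related protein, at 20 nM, or stayed untreated, and were collected after 1, 6 or 24 h. All groups came from this 1 line, and peptide length and dose change together with the ligand. Nothing in the labels says that the 3 replicates were separate cultures, so the p-values reflect only the spread among arrays, which may be technical.

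PDGF chains form disulphide-linked dimers that bind receptor tyrosine kinases on mesenchymal cells. PDGF-A and PDGF-C act mainly through the alpha receptor, PDGF-B through both receptors and PDGF-D mainly through the beta receptor. PDGF-C and PDGF-D are secreted in a latent form whose CUB domain must be cut off by a protease. In bone, PDGF signalling is known for driving growth and migration of stromal and osteoblast precursors, and the receptors are common markers of mesenchymal stromal cells.

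The arrays were close in overall signal, with medians from 83.2 to 91.1 on the linear scale. The lowest correlation between arrays of a group was 0.992 or more in every group but PTHrP at 1 h, where it was 0.983 and replicate 3 stood apart. Of 11 osteoblast and stromal markers 8 had values, Col1a1 between 13.7 and 14.8, Alpl between 11.1 and 13.0 and Sp7 between 8.03 and 11.1. Marker lists of other cell types were mixed. Some markers were dim on all arrays: Pecam1, Cdh5 and Tek of endothelium (at most 5.38, 5.54 and 5.10), Ptprc and Itgam of blood cells (at most 4.38 and 4.39), Rgs5 and Myh11 of mural cells (at most 6.07 and 5.60), and Pf4 and Ppbp of platelets (at most 5.28 and 5.44). Others of the same lists were brighter on average, such as endothelial Kdr (6.89), macrophage Csf1r (7.87), mural Acta2 (13.2), Notch3 (9.02) and Des (7.60), and platelet Itga2b (8.82). The adipocyte marker Adipoq lay between 9.92 and 12.1. The osteoblast and stromal list moved with treatment. Its summed linear level at 24 h was 43800 to 46230 in PTH-treated, 50760 to 60070 in PTHrP-treated and 69610 to 70140 in untreated cells. There 7 of 8 markers fell with PTH and 5 of 8 with PTHrP, where 5.96% and 3.02% of all genes tested were called lower. The Actb 3' minus 5' log2 signal, a sign of RNA quality, moved too, at 0.411 to 0.428 in PTH-treated, 0.432 to 0.453 in PTHrP-treated and 0.362 to 0.386 in untreated cells at 24 h. That of Gapdh overlapped there, at -0.225 to -0.199 in PTH-treated, -0.23 to -0.216 in PTHrP-treated and -0.218 to -0.199 in untreated cells. In bulk RNA, fewer cells of a type and less RNA per cell cannot be told apart.

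**Figure D1:**
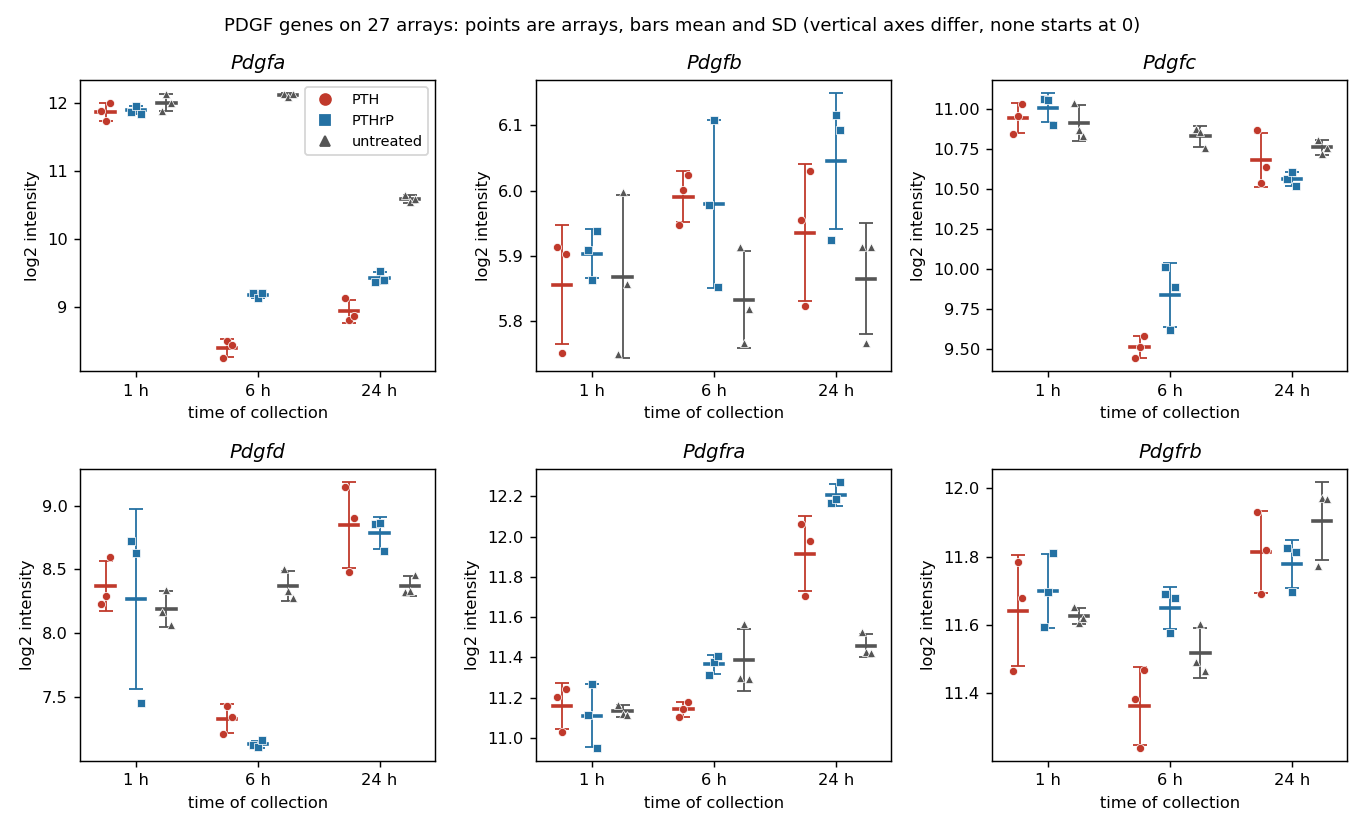
Log2 intensity of the 6 PDGF genes on each of the 27 arrays, by time after addition of the peptide, with PTH and PTHrP to the left of untreated cells. Points are arrays, bars are group means and SDs, and the vertical axes differ and do not start at 0. Pdgfa, Pdgfc and Pdgfd drop with both peptides at 6 h, Pdgfa stays low at 24 h, and Pdgfra is high at 24 h.

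At 1 h none of the 6 genes passed the test with either peptide. With PTH, 0 of 6 members passed an adjusted p of 0.05 in the limma fit, where 1.74% of all genes tested did, and with PTHrP 0 of 6 did, against 1.81%. At an unadjusted p under 0.05, 0 of 6 members passed with PTH, where 1433 of 15711 genes did. With PTHrP 0 of 6 passed, where 1486 of 15711 genes did. Pdgfa, the gene of the PDGF-A chain, had 11.89, 11.74 and 12.00 under PTH and 11.88, 11.97 and 11.85 under PTHrP, against 11.89, 12.13 and 12.01 in untreated cells, and the 3 groups overlapped. Pdgfd, the gene of the PDGF-D chain, had 8.72, 8.63 and 7.46 with PTHrP, against 8.17, 8.34 and 8.07 in untreated cells. Its lowest value, 7.46, came from the PTHrP array that stood apart. Without that array, Pdgfd was higher with PTHrP by 0.48 (adjusted p = 0.0352), against 0.08 with it (adjusted p = 0.93). With PTH, Pdgfd had 8.23, 8.29 and 8.60 and overlapped the untreated arrays.

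The other members were as close to untreated cells at 1 h. Pdgfc had 10.84, 10.96 and 11.03 under PTH and 11.06, 11.05 and 10.90 under PTHrP, against 11.04, 10.87 and 10.83 in untreated cells. Pdgfra had 11.20, 11.03 and 11.24 under PTH and 11.11, 11.27 and 10.95 under PTHrP, against 11.16, 11.12 and 11.11 in untreated cells. The untreated arrays of both lay within the range of the treated ones or next to it. Pdgfrb had 11.47, 11.78 and 11.68 under PTH and 11.59, 11.70 and 11.81 under PTHrP, against 11.65, 11.61 and 11.62 in untreated cells, again with overlap.

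At 6 h, 3 of the 4 ligand genes had fallen with both peptides: Pdgfa, Pdgfc and Pdgfd. With PTH, 4 of 6 members were lower and 0 higher, where 17.9% of all genes were called lower and 11.4% higher. With PTHrP, 3 of 6 members were lower and 0 higher, where 12.2% of genes were lower and 8.7% higher. The median difference of the 6 members was -0.642 with PTH and -0.505 with PTHrP, beside -0.00338 and 0.0307 over all genes tested. Both peptides were set against the same 3 untreated arrays, so these counts are not independent of each other. The osteoblast and stromal markers summed to 74850 to 76500 in PTH-treated, 77670 to 82780 in PTHrP-treated and 85940 to 87790 in untreated cells. The Actb 3' minus 5' signal at 6 h was 0.327 to 0.345 under PTH, 0.271 to 0.355 under PTHrP and 0.227 to 0.308 without peptide. That of Gapdh was -0.182 to -0.145 under PTH, -0.174 to -0.127 under PTHrP and -0.216 to -0.187 without peptide. Platelet markers, from cells known as a source of PDGF, summed to 627 to 687 in PTH-treated, 561 to 607 in PTHrP-treated and 461 to 522 in untreated cells, and 2 of 3 were higher with PTH and 1 of 3 with PTHrP. This platelet sum is mostly Itga2b, whose mean of 8.82 over all arrays stood beside 5.06 for Pf4 and 5.03 for Ppbp, both dim. The 7 mural markers summed to 12710 to 13110 in PTH-treated, 13700 to 14920 in PTHrP-treated and 13880 to 15330 in untreated cells. Acta2, the brightest, outweighs the others in this sum. Of the 7 markers, 2 were higher and 1 lower under PTH, and 3 were higher and 0 lower under PTHrP. The part of these in the results was not tested.

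Pdgfa fell most of the 6. Its values were 8.24, 8.50 and 8.44 under PTH and 9.20, 9.13 and 9.20 under PTHrP, against 12.14, 12.10 and 12.15 in untreated cells. All treated arrays lay below all untreated ones, and PTH arrays lay below PTHrP arrays. The fall was 3.74 ± 0.09 with PTH (SE, n = 3, adjusted p = 1.33e-19), which left 7.51% of the untreated intensity. With PTHrP the difference was -2.95 ± 0.09 (adjusted p = 3.18e-17), which left 12.9%. In both comparisons Pdgfa ranked 1 of 15711 genes by p-value, and with PTH its fall was the 4th largest by size.

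Pdgfc, whose product is a latent ligand of the alpha receptor, had 9.44, 9.51 and 9.58 under PTH and 10.01, 9.62 and 9.89 under PTHrP, against 10.87, 10.85 and 10.75 in untreated cells. No treated array reached an untreated one. The difference was -1.32 ± 0.09 with PTH (adjusted p = 3.54e-11) and -0.99 ± 0.09 with PTHrP (adjusted p = 1.23e-08), or 40.2% and 50.4% of the untreated intensity. Pdgfd, whose product is latent as well and binds the beta receptor, had 7.21, 7.44 and 7.35 under PTH and 7.13, 7.11 and 7.16 under PTHrP, against 8.50, 8.33 and 8.28 in untreated cells. Again the treated and untreated arrays were separate. Its difference was -1.04 ± 0.21 with PTH (adjusted p = 0.000317) and -1.24 ± 0.21 with PTHrP (adjusted p = 7.57e-05), which left 48.7% and 42.5%. By the mean of its 3 probe sets, 1 of which lay under the filter on dim genes, the differences were smaller, at -0.62 and -0.75, and still passed (adjusted p = 0.000833 and 0.000183).

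Pdgfb, the gene of the PDGF-B chain, stayed dim. Over all 27 arrays it ranged from 5.75 to 6.12 and lay below the array median on 27 of 27. At 6 h it had 5.95, 6.00 and 6.02 under PTH and 5.98, 6.11 and 5.85 under PTHrP, against 5.91, 5.77 and 5.82 in untreated cells. The difference of 0.16 ± 0.08 with PTH (adjusted p = 0.161) and of 0.15 ± 0.08 with PTHrP (adjusted p = 0.226) missed the threshold. Its second probe set did not follow the first (r = -0.0178 over 27 arrays, a description of the same arrays), so a change in Pdgfb could not be resolved at this signal. At 24 h it had 5.95, 5.82 and 6.03 under PTH and 5.92, 6.12 and 6.09 under PTHrP, against 5.91, 5.77 and 5.91 in untreated cells. All PTHrP arrays were higher than the untreated ones there, by 0.18 ± 0.08, which did not pass (adjusted p = 0.266). By the second probe set the sign was reversed, also without passing. It had 5.65, 5.78 and 5.79 under PTHrP, against 5.96, 6.02 and 5.92 in untreated cells, a difference of -0.225.

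**Figure D2:**
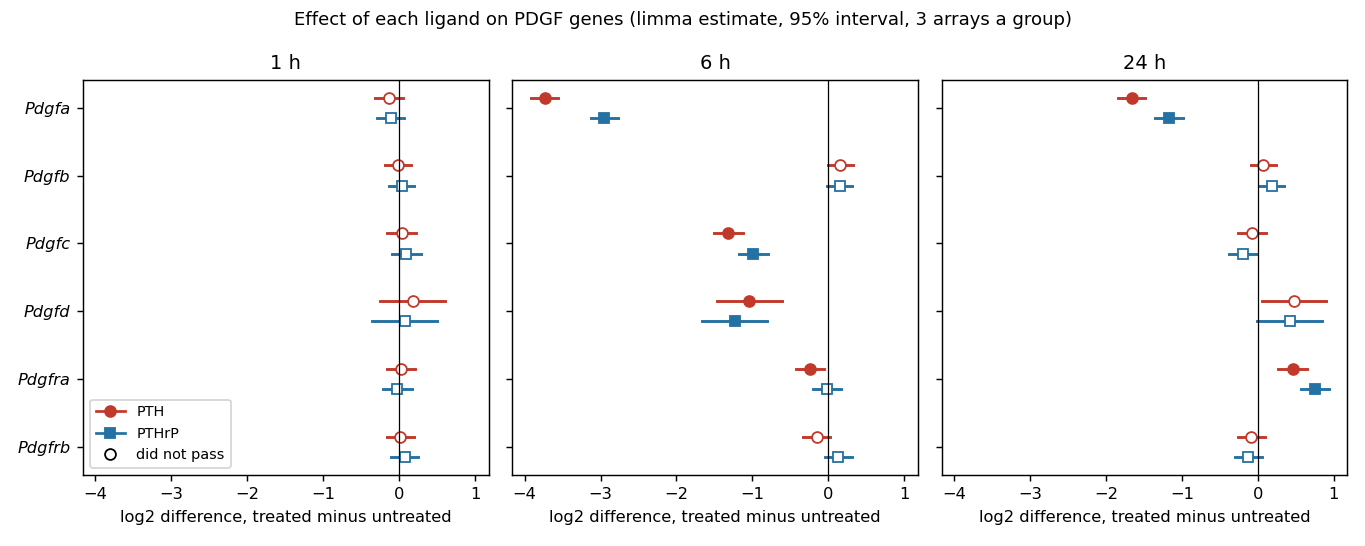
Log2 difference from untreated cells at 1, 6 and 24 h for each PDGF gene, with PTH and PTHrP as separate markers and 95% confidence intervals from the limma fit. Open markers did not pass the test. Pdgfa reaches -3.74 with PTH and -2.95 with PTHrP at 6 h and remains below 0 at 24 h, and the intervals of Pdgfc and Pdgfd lie below 0 with both peptides at 6 h.

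The promoter windows of the 3 ligand genes that fell together are shown to set their sequences side by side. Each line gives the 250 bases before an annotated start, from RefSeq on GRCm38.p6, 5' to 3' on the gene's strand. Of the 6 members, 4 had an entry whose sequence could be used here, and Pdgfa had 2 starts. In the same annotation Pdgfa spans chr5:138976014-139000792, Pdgfc chr3:81036416-81214040 and Pdgfd chr9:6168363-6534284, so the Pdgfa windows lie inside its span and that of Pdgfd overlaps its first bases. Capitals mark matches, on either strand, to any of the motifs searched: a full cAMP response element (TGACGTCA), its shorter core (TGACG), an AP-1 site (TGANTCA), a GC box (GGGCGG), an Egr site (GCGTGGGCG) and a TATA box (TATAAA). The core lies within the full element, and the Egr site can overlap a GC box.
Pdgfa, start 1, chr5:138994945-138995194, minus strand: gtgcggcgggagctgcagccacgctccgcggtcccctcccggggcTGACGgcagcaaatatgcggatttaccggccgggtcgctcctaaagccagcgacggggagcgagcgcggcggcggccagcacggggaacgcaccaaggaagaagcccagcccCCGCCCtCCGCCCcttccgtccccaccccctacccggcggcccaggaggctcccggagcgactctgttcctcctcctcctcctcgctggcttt
Pdgfa, start 2, chr5:138994282-138994531, minus strand: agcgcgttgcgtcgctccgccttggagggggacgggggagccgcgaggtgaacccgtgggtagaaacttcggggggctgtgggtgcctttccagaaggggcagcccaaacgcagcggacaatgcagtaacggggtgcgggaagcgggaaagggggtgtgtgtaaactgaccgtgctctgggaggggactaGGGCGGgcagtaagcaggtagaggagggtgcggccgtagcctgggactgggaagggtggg
Pdgfc, chr3:81036166-81036415, plus strand: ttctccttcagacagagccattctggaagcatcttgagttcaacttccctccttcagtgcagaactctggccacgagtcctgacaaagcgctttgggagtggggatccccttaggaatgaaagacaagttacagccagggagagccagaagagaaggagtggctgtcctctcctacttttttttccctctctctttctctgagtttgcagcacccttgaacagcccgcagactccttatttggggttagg
Pdgfd, chr9:6168236-6168485, plus strand: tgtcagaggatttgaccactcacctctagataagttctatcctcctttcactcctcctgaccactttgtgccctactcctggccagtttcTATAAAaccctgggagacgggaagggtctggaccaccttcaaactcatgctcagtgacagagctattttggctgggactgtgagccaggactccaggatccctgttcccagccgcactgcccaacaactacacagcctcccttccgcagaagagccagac

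No motif searched was found in the windows of more than 1 of these ligand genes, and the windows were not aligned with each other. The first Pdgfa window held the core TGACG, 205 to 201 bases before the start, and 2 GC boxes on the opposite strand, and the second held 1 GC box, 60 to 55 bases before it. The Pdgfd window held TATAAA, 160 to 155 bases before its start, and the Pdgfc window held none of the motifs. The remaining usable window, that of Pdgfra, is not printed. It held the core TGACG as well, on the opposite strand, 218 to 214 bases before its start. Among 32851 windows of the same length, 17.8% held TGACG, 32.7% held GGGCGG and 12.4% held TATAAA, and the full element was found in 1.55%. The GC content was 72.4% and 66.4% in the Pdgfa windows, 50.8% for Pdgfc and 53.6% for Pdgfd. A match describes these letters only.

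At 24 h Pdgfa was still low with both peptides, Pdgfra, the gene of the alpha receptor, had risen with both, and no difference of Pdgfc or Pdgfd passed the test. With PTH 1 of 6 members was higher and 1 lower, where 5.69% of all genes were higher and 5.96% lower. With PTHrP the members' count was likewise 1 and 1, where 3.09% of genes were higher and 3.02% lower. Pdgfa had 9.13, 8.81 and 8.86 under PTH and 9.36, 9.53 and 9.39 under PTHrP, against 10.65, 10.54 and 10.59 in untreated cells, with no overlap. The difference was -1.66 ± 0.09 with PTH (adjusted p = 2.07e-12) and -1.17 ± 0.09 with PTHrP (adjusted p = 2.68e-09), which left 31.6% and 44.5% of the untreated intensity. Mural and adipocyte markers were summed at 24 h beside the osteoblast list. The 7 mural cell markers summed to 4340 to 5163 in PTH-treated, 4544 to 5165 in PTHrP-treated and 8958 to 10470 in untreated cells. This sum is mostly Acta2, whose mean of 13.2 over all arrays stood beside 9.02 for the next brightest, Notch3. In the list 1 marker was higher and 1 lower under each peptide, and the median difference was -0.00496 with PTH and -0.06 with PTHrP. The 3 adipocyte markers summed to 2056 to 3319 in PTH-treated, 1959 to 4772 in PTHrP-treated and 3687 to 5655 in untreated cells. Their part in the results was not tested.

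Pdgfc had 10.87, 10.54 and 10.64 under PTH and 10.56, 10.60 and 10.52 under PTHrP, against 10.81, 10.72 and 10.75 in untreated cells. All PTHrP arrays lay below the untreated ones, by 0.20 on average, without passing the test (adjusted p = 0.297). Pdgfd had 9.15, 8.48 and 8.90 under PTH and 8.85, 8.86 and 8.64 under PTHrP, against 8.32, 8.33 and 8.46 in untreated cells. Here every treated array lay above every untreated one, so the sign was opposite to that at 6 h. The difference of 0.47 ± 0.21 with PTH (adjusted p = 0.162) and 0.42 ± 0.21 with PTHrP (adjusted p = 0.344) did not pass the test, and it did pass when arrays were weighted by their estimated quality (adjusted p = 0.000959 and 0.0123).

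Among the receptors, Pdgfra rose at 24 h and Pdgfrb, the gene of the beta receptor, passed no test against untreated cells. At 24 h Pdgfra had 12.06, 11.71 and 11.98 under PTH and 12.17, 12.19 and 12.27 under PTHrP, against 11.52, 11.43 and 11.42 in untreated cells. Every treated array was higher. It rose by 0.46 ± 0.09 with PTH (1.37-fold, adjusted p = 0.000969) and by 0.75 ± 0.09 with PTHrP (1.68-fold, adjusted p = 2.89e-06). By the dimmest Pdgfra probe set these differences were 0.14 and 0.40 and did not pass (adjusted p = 0.611 and 0.063). At 6 h Pdgfra had 11.10, 11.15 and 11.18 under PTH and 11.31, 11.38 and 11.41 under PTHrP, against 11.30, 11.57 and 11.29 in untreated cells. The PTH arrays were all lower, by 0.25 ± 0.09 (adjusted p = 0.0437), whereas with PTHrP the difference was -0.02 (adjusted p = 0.898). That call with PTH was lost without untreated replicate 2 (-0.16, adjusted p = 0.281) and without any one of the PTH arrays, and by the dimmest probe set the difference was 0.02.

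Pdgfrb at 6 h had 11.38, 11.24 and 11.47 under PTH and 11.69, 11.58 and 11.68 under PTHrP, against 11.49, 11.60 and 11.46 in untreated cells. The differences were -0.16 ± 0.09 (adjusted p = 0.201) and 0.13 ± 0.09 (adjusted p = 0.324). At 24 h its values were 11.93, 11.69 and 11.82 under PTH and 11.82, 11.70 and 11.81 under PTHrP, against 11.77, 11.97 and 11.97 in untreated cells, and the groups overlapped. Its 9 group means spanned 0.54, the least of any member but Pdgfb.

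Untreated cells changed over the course as well, Pdgfa most. Their Pdgfa mean was 12.01 ± 0.12 at 1 h, 12.13 ± 0.03 at 6 h and 10.59 ± 0.06 at 24 h (SD, n = 3). The Actb 3' minus 5' signal of untreated cells moved as well, from 0.211 to 0.253 at 1 h to 0.362 to 0.386 at 24 h. The osteoblast and stromal markers summed to 80380 to 86080 at 1 h and 69610 to 70140 at 24 h. Mural markers, mostly Acta2, summed to 14640 to 14980 and 8958 to 10470. Sums of the other marker lists overlapped between these times. The part of these was not tested. At 24 h against 1 h, untreated Pdgfa fell by 1.42 ± 0.09 (adjusted p = 1.85e-11), while Pdgfra rose by 0.33 (adjusted p = 0.00974) and Pdgfrb by 0.28 (adjusted p = 0.0198), with 11.5% of all genes lower and 11.6% higher. By the dimmest probe set the Pdgfra difference was 0.05 (adjusted p = 0.881). The Pdgfrb call was lost without any one of untreated replicates 2 and 3 at 1 h or 24 h (adjusted p = 0.0566 to 0.0877) and by its second probe set (0.19, adjusted p = 0.108). None of the members passed at 6 h against 1 h in untreated cells, where 2.27% of genes did. An unadjusted p under 0.05 was found for 1 of 6 members and for 1823 of 15711 genes. The Pdgfa effect was 2.08 smaller at 24 h than at 6 h with PTH and 1.78 smaller with PTHrP. In that interval Pdgfa rose by 0.54 ± 0.09 in PTH-treated cells and by 0.25 ± 0.09 in PTHrP-treated cells, and fell by 1.53 ± 0.09 in untreated cells (adjusted p = 1.52e-05, 0.0275 and 8.33e-12). The PTHrP step was lost without PTHrP replicate 2 at 24 h (0.20, adjusted p = 0.134) or at 6 h (0.22, adjusted p = 0.0905), by the second probe set (0.08, adjusted p = 0.640), by the mean of both (0.17, adjusted p = 0.186) and with quantile normalisation (0.16, adjusted p = 0.0912). The PTH step was 0.36 by the second probe set and still passed (adjusted p = 0.0354).

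The course of Pdgfc and Pdgfd was different. Between 6 and 24 h, Pdgfc rose by 1.17 with PTH (adjusted p = 1.48e-10) and 0.72 with PTHrP (adjusted p = 6.77e-07), against a difference of -0.07 in untreated cells (adjusted p = 0.719). Pdgfd rose by 1.51 with PTH (adjusted p = 1.33e-06) and 1.65 with PTHrP (adjusted p = 5.41e-07), against -0.00101 in untreated cells (adjusted p = 0.998). The treated levels moved, and the untreated difference stayed within the spread of the arrays. Pdgfra rose in this step by 0.77 in PTH-treated cells (adjusted p = 1.27e-07) and by 0.84 in PTHrP-treated cells (adjusted p = 5.16e-08), against a difference of 0.07 in untreated cells (adjusted p = 0.697). By the dimmest probe set its PTH step was 0.32 (adjusted p = 0.045), and by the mean of probe sets the Pdgfd steps were 0.93 with PTH and 1.01 with PTHrP. Pdgfrb rose by 0.45 in PTH-treated cells (adjusted p = 0.000119) and by 0.38 in untreated cells (adjusted p = 0.00141), and its PTH effect moved by 0.07 between these times (adjusted p = 0.793). Called genes made up 41.8% of all genes in this step with PTH, 38.6% with PTHrP and 23.4% in untreated cells. At 6 h against 1 h the differences were -3.49 for Pdgfa, -1.43 for Pdgfc and -1.04 for Pdgfd in PTH-treated cells, and -2.72, -1.17 and -1.13 in PTHrP-treated cells, all past the threshold, where 32.6% and 28.3% of genes were called. Of the receptors, Pdgfrb was lower in PTH-treated cells by 0.28 ± 0.09 in this step (adjusted p = 0.0143) and Pdgfra higher in PTHrP-treated cells by 0.25 ± 0.09 (adjusted p = 0.0379). The Pdgfrb call was lost without PTH replicate 2 or 3 at 1 h or PTH replicate 2 at 6 h, by its second probe set and with only the groups compared. That of Pdgfra was lost without PTHrP replicate 1 or 3 at 1 h or replicate 2 or 3 at 6 h, with only the groups compared and by the mean of its probe sets, and by the dimmest the difference was -0.22. By the mean of probe sets the Pdgfd differences were -0.61 with PTH and -0.66 with PTHrP. The effect against untreated cells moved down between these times for 3 of 6 members with each peptide, beside 12.1% of all genes with PTH and 8.45% with PTHrP. Between 6 and 24 h it moved up for 4 of 6 with each, beside 12.6% and 7.08%. By the dimmest probe set the upward movement of Pdgfra did not pass with either peptide.

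Set in order of their means, the 9 groups of Pdgfa fell into steps, some of them narrow. The 4 highest, untreated cells at 6 and 1 h and then PTHrP- and PTH-treated cells at 1 h, were between 12.13 and 11.88 and overlapped from one to the next. Below them came untreated cells at 24 h (10.59), PTHrP at 24 h (9.43), PTHrP at 6 h (9.18), PTH at 24 h (8.93) and PTH at 6 h (8.39), with no array overlapping between neighbours. The lowest array of PTHrP at 6 h (9.1305) lay just above the highest of PTH at 24 h (9.1274). By the second probe set, PTHrP at 24 h (8.79 to 8.90) and at 6 h (8.72 to 8.84) overlapped. For Pdgfc, 7 groups from 11.01 down to 10.56 overlapped in turn, and PTHrP at 6 h (9.84) and PTH at 6 h (9.51) stood apart below. For Pdgfd the order began with PTH at 24 h (8.84) and PTHrP at 24 h (8.79), which overlapped, followed by 5 overlapping groups between 8.37 and 8.19, and ended with PTH at 6 h (7.33) and PTHrP at 6 h (7.13). For Pdgfra, PTHrP at 24 h (12.21) and PTH at 24 h (11.92) were above all other groups, whose means lay between 11.46 and 11.11. All neighbouring groups of Pdgfb overlapped, and so did those of Pdgfrb, except untreated cells at 1 h (11.63) and at 6 h (11.52).

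PTHrP and PTH differed mainly in Pdgfa, which was higher with PTHrP. The values were 9.20, 9.13 and 9.20 with PTHrP at 6 h, against 8.24, 8.50 and 8.44 with PTH, a difference of 0.79 ± 0.09 (adjusted p = 5.33e-06). At 24 h they were 9.36, 9.53 and 9.39 with PTHrP, against 9.13, 8.81 and 8.86 with PTH, a difference of 0.49 ± 0.09 (adjusted p = 0.0027). With the 6 arrays fitted alone, the 24 h difference missed the threshold (adjusted p = 0.0705), and by the second probe set it was 0.37 (adjusted p = 0.273). Ligand, peptide length and dose cannot be told apart in these comparisons.

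At 6 h, 3 of 6 members were higher with PTHrP than with PTH and 0 lower, where 4.45% of all genes were higher and 3.17% lower. The others were Pdgfc, by 0.33 ± 0.09 (adjusted p = 0.0283), and Pdgfrb, by 0.29 ± 0.09 (adjusted p = 0.0431). Both calls were lost without PTH replicate 1 or 2 or PTHrP replicate 1 or 3, which left a count of 1. Every PTHrP array of Pdgfd lay below every PTH array, with a difference of -0.20 ± 0.21 that did not pass (95% interval -0.62 to 0.23, adjusted p = 0.661). For Pdgfra every PTHrP array lay above every PTH array at 6 h, by 0.22 ± 0.09 (adjusted p = 0.146). The same held at 24 h, by 0.29 ± 0.09 (adjusted p = 0.162), and neither passed. By the dimmest Pdgfra probe set the 6 h difference was -0.07. At 24 h 1 of 6 members was higher with PTHrP and 0 lower, where 0.84% of genes were higher and 0.318% lower, and at 1 h 0 of 6 members and 0% of all genes passed. In that comparison at 1 h, 632 of 15711 genes had an unadjusted p under 0.05.

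**Figure D3:**
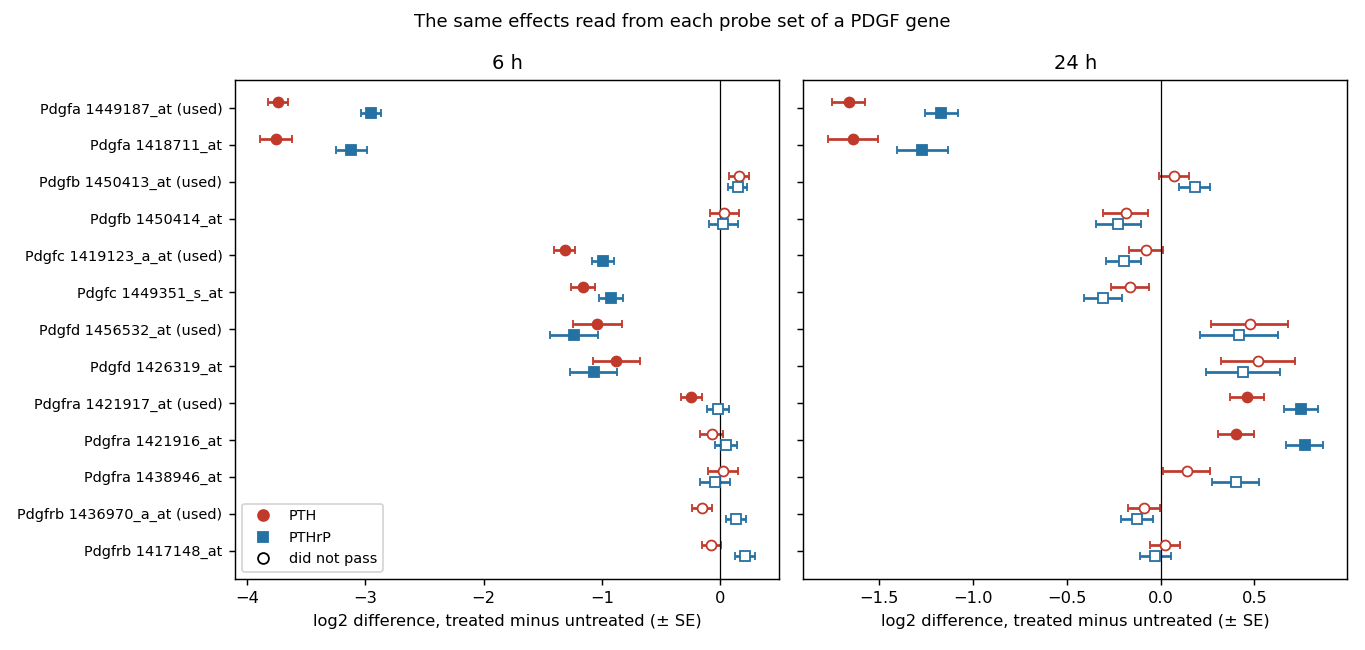
Log2 difference from untreated cells at 6 and 24 h (± SE) for each probe set of a PDGF gene past the intensity filter, with PTH and PTHrP as separate markers and open markers where the test was not passed. Both Pdgfa probe sets lie below 0 throughout, and at 24 h the lowest-listed Pdgfra probe set lies closer to 0 than the other two.

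Further probe sets of the same gene followed the one used for most members. Over 27 arrays, which share the 9 groups, the correlation was 0.994 for Pdgfa, 0.991 for Pdgfc, 0.982 for the second Pdgfd probe set, 0.948 and 0.677 for the other Pdgfra probe sets, and 0.756 for Pdgfrb. Another Pdgfd probe set ran the other way (r = -0.43), with a mean of 4.21, under the filter on dim genes. Across the 9 group means, Pdgfa and Pdgfc had r = 0.796, Pdgfc and Pdgfd 0.784, and Pdgfa and Pdgfd 0.31, a description over groups that share treatment and time.

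Other genes of the PDGF pathway moved in both directions at 6 h, with the co-receptors Nrp1 and Lrp1 leading the rises. Of 36 listed genes 31 had values and passed the filter. With PTH 11 were higher and 6 lower, where 11.4% of all genes were higher and 17.9% lower, and their median difference was 0.0561, beside -0.00338 over all genes. With PTHrP 7 were higher and 5 lower, where 8.7% of all genes were higher and 12.2% lower, and their median was 0.0753, beside 0.0307. Nrp1, a co-receptor known to bind PDGF ligands, averaged 11.61 with PTH, 11.36 with PTHrP and 10.14 in untreated cells. It rose by 1.47 ± 0.09 with PTH (adjusted p = 3.39e-12) and 1.22 ± 0.09 with PTHrP (adjusted p = 2.35e-10). Lrp1, an endocytic receptor that associates with the beta receptor, averaged 12.59 with PTH, 12.46 with PTHrP and 11.53 in untreated cells. It rose by 1.05 ± 0.07 (adjusted p = 4.4e-12) and 0.93 ± 0.07 (adjusted p = 1.03e-10).

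Of the tyrosine phosphatases that act on receptor tyrosine kinases, Ptpn2 rose by 0.91 ± 0.12 and Ptpn1 by 0.66 ± 0.11 with PTH (adjusted p = 1.53e-06 and 4.55e-05). Ptprj, another such phosphatase, fell by 1.15 ± 0.15 with PTHrP (adjusted p = 1.99e-06), and by 0.46 by the mean of its probe sets. Plcg1, an effector that docks on activated receptors, fell by 0.56 ± 0.09 with PTH (adjusted p = 1.27e-05), and by the mean of its probe sets the difference was -0.14 (adjusted p = 0.15). The kinase genes Src and Map2k1 rose by 0.47 ± 0.08 and 0.42 ± 0.09 with PTHrP (adjusted p = 0.000101 and 0.000617). Between the peptides at 6 h, Ptprj, Ptpn2 and the ubiquitin ligase gene Cblb were lower with PTHrP by 0.59, 0.52 and 0.43 (adjusted p = 0.014, 0.00752 and 0.0107), and Stat5b was higher by 0.29 (adjusted p = 0.0119). By the mean of probe sets Ptpn2 differed by -0.80 and Stat5b by 0.18. The call of Ptprj was lost without PTH replicate 2 or 3 or PTHrP replicate 3, that of Cblb without PTH replicate 2 or PTHrP replicate 3, and that of Stat5b without PTH replicate 2 or PTHrP replicate 1 or with only those groups.

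**Figure D4:**
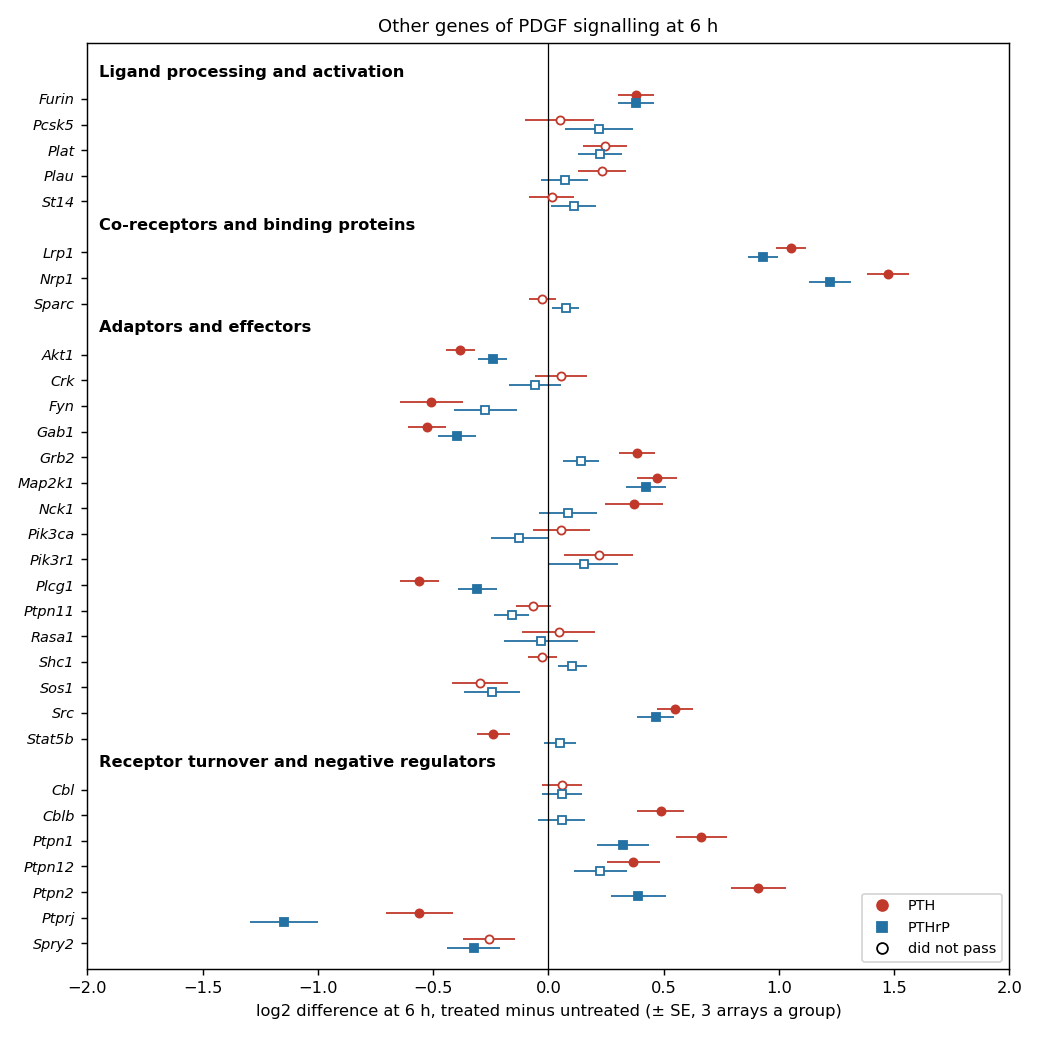
Log2 difference from untreated cells at 6 h for the 31 PDGF pathway genes with values, with PTH and PTHrP as separate markers with bars of ± SE and open markers where the test was not passed. Nrp1 and Lrp1 lie farthest above 0 with both peptides, and Ptprj lies farthest below 0 with PTHrP.

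At 1 h the pathway list of 31 held 1 gene higher with PTH and 2 with PTHrP, and 0 lower with either, where 1.74% and 1.81% of all genes were called. Spry2, an inhibitor of receptor tyrosine kinase signalling, rose by 1.03 ± 0.11 with PTH (adjusted p = 1.02e-06) and 1.01 ± 0.11 with PTHrP (adjusted p = 1.4e-06), and by the mean of its probe sets by 0.49 and 0.52. Lrp1 rose by 0.27 ± 0.07 with PTHrP (adjusted p = 0.0252), a call lost without any one of the untreated arrays at 1 h, and by 0.73 by the mean of its probe sets. Of 17 alternatives only 8 kept the call, and the adjusted p reached 0.594. At 24 h 2 of 31 genes were higher and 3 lower with PTH, where 5.69% of all genes were higher and 5.96% lower. With PTHrP 1 was higher and 1 lower, where 3.09% and 3.02% of all genes were. Lrp1 was higher by 0.88 ± 0.07 with PTH and 0.84 ± 0.07 with PTHrP (adjusted p = 6.41e-10 and 4.39e-09), and with PTH by 0.51 when its probe sets were averaged. Plat, the gene of tissue plasminogen activator, which cleaves latent PDGF-C, fell by 0.44 ± 0.10 with PTH and 0.79 ± 0.10 with PTHrP (adjusted p = 0.00271 and 3.12e-06), and by the mean of its probe sets the differences were -0.17 with PTH (adjusted p = 0.18) and -0.46 with PTHrP. Sparc, whose product binds PDGF chains, fell by 0.36 ± 0.06 with PTH (adjusted p = 0.000106). Ptprj fell by 0.56 ± 0.15 with PTH (adjusted p = 0.0112; lost without PTH replicate 2, without untreated replicate 1 or by the mean of its probe sets), and Map2k1 rose by 0.27 ± 0.09 (adjusted p = 0.0397), a call lost without any one of 5 arrays.

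Genes with a course most like that of a member were ranked by Pearson's r over the 9 group means, among 1999 genes whose group means span at least 1. The measure describes 9 points that share treatments and times. Pdgfa was closest to Smpd3 (r = 0.996), Plcd1 (0.995), Dlx3 (0.993), Tbx2 (0.993) and Ctnnb1 (0.992), and most opposite to Hdac4 (-0.991). Smpd3, a neutral sphingomyelinase gene, and Tbx2, a transcription factor gene, stood 5.16 and 3.17 lower with PTH than in untreated cells at 6 h. Pdgfc was closest to Ttc28 (0.990) and Mettl8 (0.988), and Pdgfd to Sntb2 (0.982) and Dipk1a (0.975). Pdgfra was closest to Antxr1 (0.982), an anthrax toxin receptor gene, and Rab3il1 (0.975), and most opposite to Tspyl4 (-0.986). Pdgfb and Pdgfrb, whose group means span less than 1, were not ranked.

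**Figure D5:**
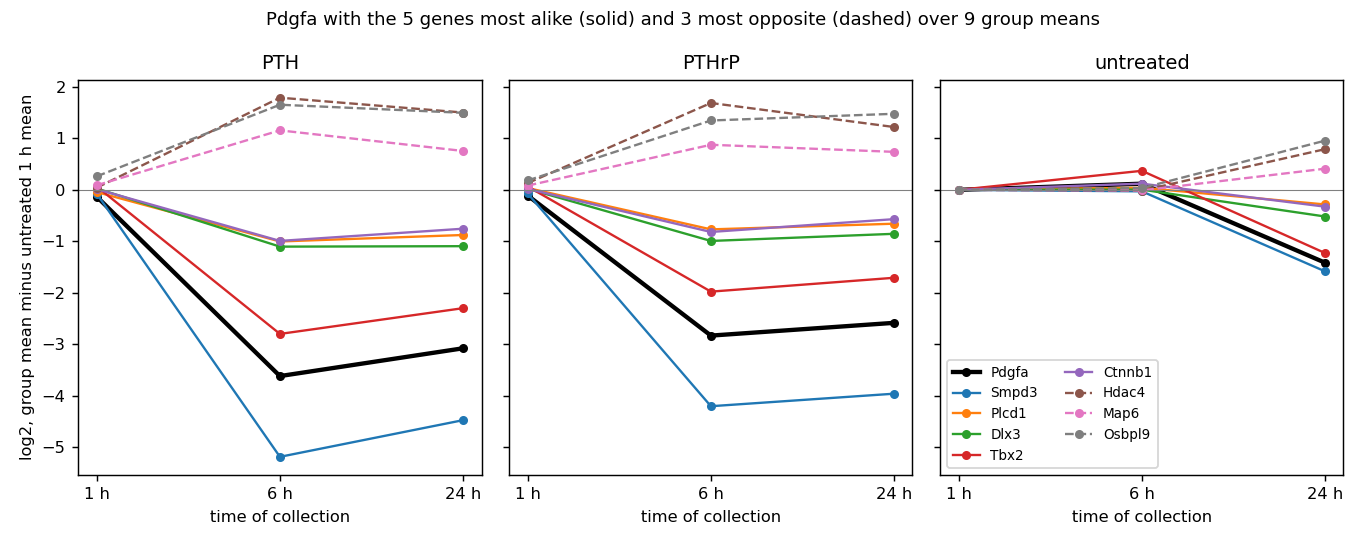
Group means of log2 intensity less the untreated 1 h mean, by time of collection, for Pdgfa (thick), the 5 genes most like it (solid) and the 3 most opposite (dashed), in PTH-treated, PTHrP-treated and untreated cells. In untreated cells the lines are widest apart at 24 h, and Smpd3 moves farther than Pdgfa in every panel.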

How the data were processed

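Total RNA of untreated, PTH-treated and PTHrP-treated KUSA4b10 cells was measured on 27 one-colour arrays. The deposited intensity of each probe set is on a linear scale. The authors made it with RMA, as the submitters' processing notes record. Per the design text, the values were normalised again for the deposit and may differ a little from those published. The RMA version is not given in the sources used here. RMA quantile-normalises arrays, so a shift of most transcripts would be hidden, and the folds of dim genes are understated.

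Log2 was taken, and 64 control probe sets were left out. Of the rest, 34945 probe sets had 1 gene symbol, 932 had several and 9160 were not listed. Each gene was read from its probe set with the highest mean. Genes that reached log2 5 on 3 arrays or more were fitted with limma 3.58.1 in R 4.3.3 (lmFit and eBayes, 9 group means, 18 residual and 5.54 prior degrees of freedom). Benjamini-Hochberg adjustment ran over 15711 genes within each comparison, with a threshold of 0.05, and SE is the moderated standard error. The fit was also run on simulated data with noise independent between arrays, which cannot cover arrays that deviate together or stand apart. Precision is limited by the number of arrays, with a median SE of 0.102 for a difference of 2 groups.

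All 6 members are named. Of the pathway list, up to 5 genes per comparison are named, those past the threshold with the largest differences, and of the genes most like a member the first few. The members and lists were chosen with earlier results of these data known. The 5 time steps within a treatment, added to 15 comparisons, were chosen after seeing the data. Same-numbered arrays deviated together (every correlation over 0.1) in 1 of 9 pairs of groups, untreated and PTHrP at 1 h, so the replicate number was no block in the fit. Alternatives covered the filter, the normalisation, an offset, array weights, the arrays fitted, the prior, the block, the probe sets and each array left out.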

Additional observations from a re-analysis of the deposited data

Results flagged for a closer look

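The effect of a peptide on a member, taken against untreated cells of the same time, differed between times in 14 cases, each by the interaction contrast of the limma fit with Benjamini-Hochberg adjustment over all genes. Both peptides share the untreated arrays, so the cases are not independent.

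Between 1 and 6 h the PTH effect on Pdgfa moved by -3.60 (adjusted p = 9.19e-16), that on Pdgfc by -1.35 (adjusted p = 3.56e-08) and that on Pdgfd by -1.22 (adjusted p = 0.00386). The PTHrP effect moved by -2.84 for Pdgfa (adjusted p = 2.09e-13), -1.08 for Pdgfc (adjusted p = 2.17e-06) and -1.31 for Pdgfd (adjusted p = 0.00327). By the mean of its probe sets Pdgfd moved by -0.72 with PTH and -0.78 with PTHrP. Among all genes, 12.1% moved down between these times with PTH and 8.45% with PTHrP. With PTHrP, the 1 h end of the Pdgfd value holds the array that stood apart.

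Between 6 and 24 h the PTH effect moved by 2.08 for Pdgfa (adjusted p = 2.23e-11), 1.24 for Pdgfc (adjusted p = 1.68e-07), 1.51 for Pdgfd (adjusted p = 0.000442) and 0.70 for Pdgfra (adjusted p = 0.000242). The PTHrP effect moved by 1.78 for Pdgfa (adjusted p = 6.49e-10), 0.79 for Pdgfc (adjusted p = 0.000165), 1.65 for Pdgfd (adjusted p = 0.000372) and 0.77 for Pdgfra (adjusted p = 0.000194). By the dimmest Pdgfra probe set both Pdgfra movements missed the threshold, at 0.11 with PTH (adjusted p = 0.748) and 0.44 with PTHrP (adjusted p = 0.115). By the mean of the probe sets the PTH movement of Pdgfra was 0.43 (adjusted p = 0.00841), and the Pdgfd movements were 0.94 with PTH and 1.02 with PTHrP. Among all genes, 12.6% moved up with PTH and 7.08% with PTHrP. For Pdgfa the upward movement held a fall of the untreated level, given above.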

How the results depend on the processing

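Of 120 member values, 51 passed the threshold, and 38 of these kept direction and call in every alternative tried, among them Pdgfa against untreated cells at 6 and 24 h with both peptides. Of 69 that did not pass, 57 never did. The cause of the changes below was not tested.

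Pdgfra with PTH at 6 h missed the threshold with no filter on dim genes (-0.25, adjusted p = 0.051), with cyclic loess (-0.20, adjusted p = 0.0751), with only the groups compared (-0.25, adjusted p = 0.0596), by the mean of its probe sets (-0.098, adjusted p = 0.436) and by the second probe set (-0.071, adjusted p = 0.683). By the dimmest it reversed (0.024, adjusted p = 0.931), as did its step from 1 to 6 h with PTHrP (-0.22, adjusted p = 0.191, against 0.25, adjusted p = 0.0379, by the probe set used). With the replicate block its value was -0.25 (adjusted p = 0.0572), and that of Pdgfrb for PTHrP against PTH at 6 h was 0.29 (adjusted p = 0.0502). The block changed no other member call against untreated cells or between the peptides, also when fitted to the 6 arrays of untreated cells and PTHrP at 1 h alone. By the dimmest probe set Pdgfra at 24 h gave 0.14 with PTH (adjusted p = 0.611) and 0.40 with PTHrP (adjusted p = 0.063).

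For PTHrP against PTH at 6 h, Pdgfrb was 0.29 with no filter (adjusted p = 0.0511) and with only those groups (adjusted p = 0.0942), and Pdgfc 0.33 with only those groups (adjusted p = 0.108), 0.28 by the mean of probe sets (adjusted p = 0.0611) and 0.23 by the second (adjusted p = 0.177). The members called were then 1 with only those groups. At 24 h Pdgfa was 0.49 with only those groups (adjusted p = 0.0705, 0 members called) and 0.37 by its second probe set (adjusted p = 0.273).

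Array weights brought past the threshold Pdgfb 0.18 and Pdgfrb -0.23 with PTH at 6 h, Pdgfd 0.48 with PTH at 24 h, Pdgfd 0.39 with PTHrP at 1 h (1 member called), Pdgfc -0.19 and Pdgfd 0.42 with PTHrP at 24 h (4 called), and Pdgfra 0.26 at 6 h and 0.25 at 24 h for PTHrP against PTH (2 called at 24 h). Quantile normalisation did so for Pdgfc with PTHrP at 24 h (-0.23, adjusted p = 0.0364), and fitting only the groups compared for Pdgfd there (0.42, adjusted p = 0.011).

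Leaving out each replicate in turn gave -0.29 to -0.16 for Pdgfra with PTH at 6 h, 0.22 to 0.34 for Pdgfrb and 0.24 to 0.44 for Pdgfc in PTHrP against PTH at 6 h (1 to 3 members called), and -0.15 to 0.48 for Pdgfd with PTHrP at 1 h (0 to 1 called).

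Counts over all genes depended most on array weights, which gave 802 against 273 for PTH at 1 h, 4388 against 1830 for PTH at 24 h, 1764 against 285, 6952 against 3288 and 2079 against 959 for PTHrP at 1, 6 and 24 h, and 4540 against 1197 and 1273 against 182 for PTHrP against PTH at 6 and 24 h. The lowest counts for these last comparisons were 629 and 77, each without 1 array, and 93 for PTHrP at 1 h with the block on 6 arrays. Of 24 values of named pathway genes, 16 kept their call throughout.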
